A study of Homo sapiens with 6 samples.

Results

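The genes described here are the YAP and TEAD group: 2 coactivators (YAP1 and WWTR1, which encodes TAZ), 4 DNA-binding partners (TEAD1 to TEAD4) and 4 well-known target genes (CCN1, CCN2, ANKRD1 and AMOTL2). They were chosen by name, with CYR61 taken as CCN1 and CTGF as CCN2, and each was measured by 1 probe set that named only that gene. All 10 were found among the 18417 genes measured. The cells were A204, an established human cell line that the labels describe as a rhabdoid tumour line. One group of 3 arrays came from A204 cells treated for 12 h with SAHA (vorinostat), an inhibitor of histone deacetylases, the enzymes that remove acetyl groups from histones and other proteins. The other group of 3 arrays came from A204 controls, which received DMSO per the treatment protocol, although another label gives their treatment as none. No treatment time was recorded for the controls. The dose is printed in the labels with an incomplete unit and is not given here. All arrays are of this 1 line. No label states that replicate arrays were separate cultures, so the spread behind each p-value may be technical.

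YAP and TAZ are related coactivators that do not bind DNA themselves and are brought to genes by the TEAD proteins. The Hippo kinases hold them in check: MST kinases activate LATS kinases, and LATS phosphorylation keeps YAP and TAZ out of the nucleus and marks them for degradation. In many cell types this pathway follows cell density, cell shape and the actin cytoskeleton, and the RNA of CCN1, CCN2 and ANKRD1 is widely used as a readout of it. The arrays measured RNA only, so the phosphorylation and location of YAP and TAZ are not known here.

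Arrays of a group correlated at 0.9965 to 0.998 (Pearson, across probe sets, which are not independent replicates), and arrays of different groups at 0.9728 to 0.9738. Of 5 genes typical of rhabdoid cells, vimentin and the keratins KRT8 and KRT18 had log2 signals between 12.63 and 13.55 in both groups, MUC1 was at 7.80 and 7.52, and SMARCB1, the subunit typically lost in rhabdoid tumours, at 7.74 and 7.22. Of these 5 genes 4 were lower in SAHA and KRT8 was not called, with changes from -0.51 (SMARCB1) to -0.069 (KRT8). Over all genes 28.9% were lower and 60% were called. The median change of the 5 genes was -0.21, and the median size of change of all genes was 0.24. Among 9 measured markers of other cell types the white blood cell gene PTPRC was lowest in control, at 4.05, and the endothelial gene CDH5 highest, at 12.73. CDH5 was the one called lower (-2.19), and the muscle gene DES (0.76) and the epithelial gene EPCAM (0.14) were called higher. The other 6, among them the muscle regulators MYOD1 and MYOG, were not called (median of the list 0.12). So 3 of these 9 markers were called, beside 60% of all genes. Their summed linear signal, 7341 to 7616 in control and 2235 to 2354 in SAHA, mainly follows CDH5. The part of these markers in the results was not tested. No background call was available. In such bulk RNA, fewer cells expressing a gene and less of its RNA per cell cannot be told apart.

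All 10 genes of the group passed the test, 6 higher and 4 lower in SAHA (limma, adjusted p under 0.05 over all genes), and direction was not shared within any of the 3 roles. The strongest changes were rises of ANKRD1 (11.3-fold) and CCN2 (8.61-fold), while YAP1 itself was lower (1.86-fold) and TEAD2 was lower (2.32-fold). By the same rule 60% of all genes were called, 31.1% higher and 28.9% lower. Changes of at least 2-fold were found for 3 of the 10 genes, against 11.3% of all genes. In all 10 the SAHA arrays did not overlap the control arrays, as in 65.4% of all genes. The median change was 0.29 on the log2 scale against -0.0027 for all genes, and the median size of change was 0.67 against 0.24.

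**Figure D1:**
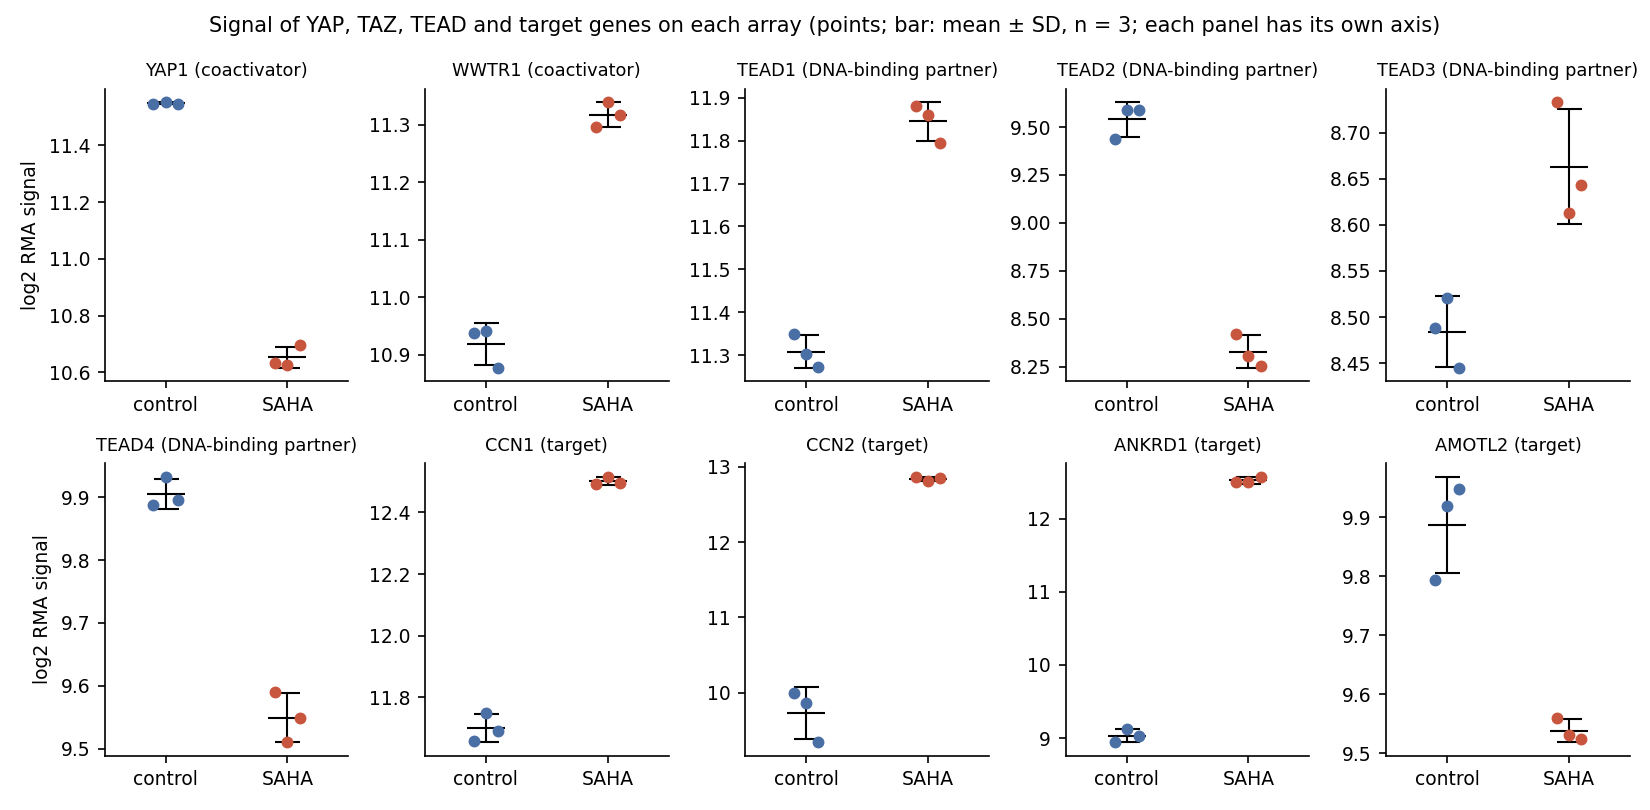
Log2 RMA signal of each of the 10 genes on each array, with control arrays in blue, SAHA arrays in red, and bars for the mean and SD of 3 arrays; each panel has its own axis. No panel has overlapping groups, and the separation is smallest in TEAD3, where the nearest arrays were 0.092 apart.

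The coactivator genes moved in opposite directions. YAP1 encodes YAP. Its log2 signal was 11.55 on every control array and 10.63, 10.63 and 10.70 on the SAHA arrays. Every SAHA array was lower, the nearest by 0.85, and YAP1 changed by -0.90 ± 0.041 (SE, 3 against 3 arrays; 95% interval -0.99 to -0.80, adjusted p = 5.47e-07). WWTR1 encodes TAZ, the paralog of YAP. Its signal was 10.94, 10.94 and 10.88 in control and 11.30, 11.34 and 11.32 in SAHA. All 3 SAHA arrays were higher, and WWTR1 rose by 0.40 ± 0.042 (95% interval 0.30 to 0.50, adjusted p = 6.36e-05), which is 1.32-fold. Within an array, the log2 difference YAP1 minus WWTR1 was 1.29 lower in SAHA than in control, with SDs of 0.035 and 0.045. Over 13 alternatives this shift ran from -1.32 to -1.27. Signals of different probe sets are not on one scale, so it does not say which of the pair has more RNA.

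The TEAD genes encode the transcription factors that carry YAP and TAZ to DNA, all of them with the same kind of DNA-binding domain. TEAD1 and TEAD3 rose, and TEAD2 and TEAD4 fell. TEAD1 was at 11.35, 11.30 and 11.27 in control and 11.88, 11.86 and 11.79 in SAHA. It rose 1.45-fold in groups that lay 0.44 apart at their nearest arrays (change 0.54 ± 0.046, 95% interval 0.43 to 0.64, adjusted p = 1.71e-05).

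TEAD2 had control values of 9.44, 9.59 and 9.59 and SAHA values of 8.42, 8.31 and 8.25. Every SAHA array was more than 1 log2 unit below every control array. Its change of -1.21 ± 0.064 (95% interval -1.36 to -1.06, adjusted p = 1.13e-06) was the largest fall of the 10 genes, and the size of change was larger than that of 92.4% of all genes. TEAD4 was at 9.89, 9.93 and 9.90 in control and 9.59, 9.51 and 9.55 in SAHA, a fall of 1.28-fold (change -0.36 ± 0.043, adjusted p = 0.000142).

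TEAD3 had the smallest change. Its control values were 8.49, 8.52 and 8.44 and its SAHA values 8.73, 8.61 and 8.64, with SAHA array 1 the highest. TEAD3 rose by 0.18 ± 0.049 (95% interval 0.065 to 0.29, adjusted p = 0.0133). Without SAHA array 1 the change was 0.14 and was no longer called (adjusted p = 0.0546). Nor was it called with arrays centred on the median level of 9 housekeeping genes (0.037, adjusted p = 0.559), which moved the median of all genes by -0.14. That level was the signal of a single gene, SDHA, on every array, and SDHA was itself called higher by 0.14. With arrays centred on the median deviation of the 9 genes, a setting chosen after seeing the data, TEAD3 was at 0.17 (adjusted p = 0.0273).

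The TEAD genes form 6 pairs, and each pair's within-array difference lay apart in the groups. The within-array difference TEAD1 minus TEAD2 was 1.75 higher in SAHA than in control, TEAD2 minus TEAD3 was changed by -1.39, and TEAD1 minus TEAD4 was 0.89 higher. TEAD2 minus TEAD4 was changed by -0.86, TEAD3 minus TEAD4 was 0.53 higher, and TEAD1 minus TEAD3 was 0.36 higher. The groups did not overlap for any of these, nor for YAP1 minus WWTR1 and CCN1 minus CCN2. The exact two-sided permutation test gave p = 0.1 for each of the 8 pairs and 0.1 after adjustment over them, which is the smallest p that 3 against 3 arrays allow. The test therefore cannot pass the threshold.

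**Figure D2:**
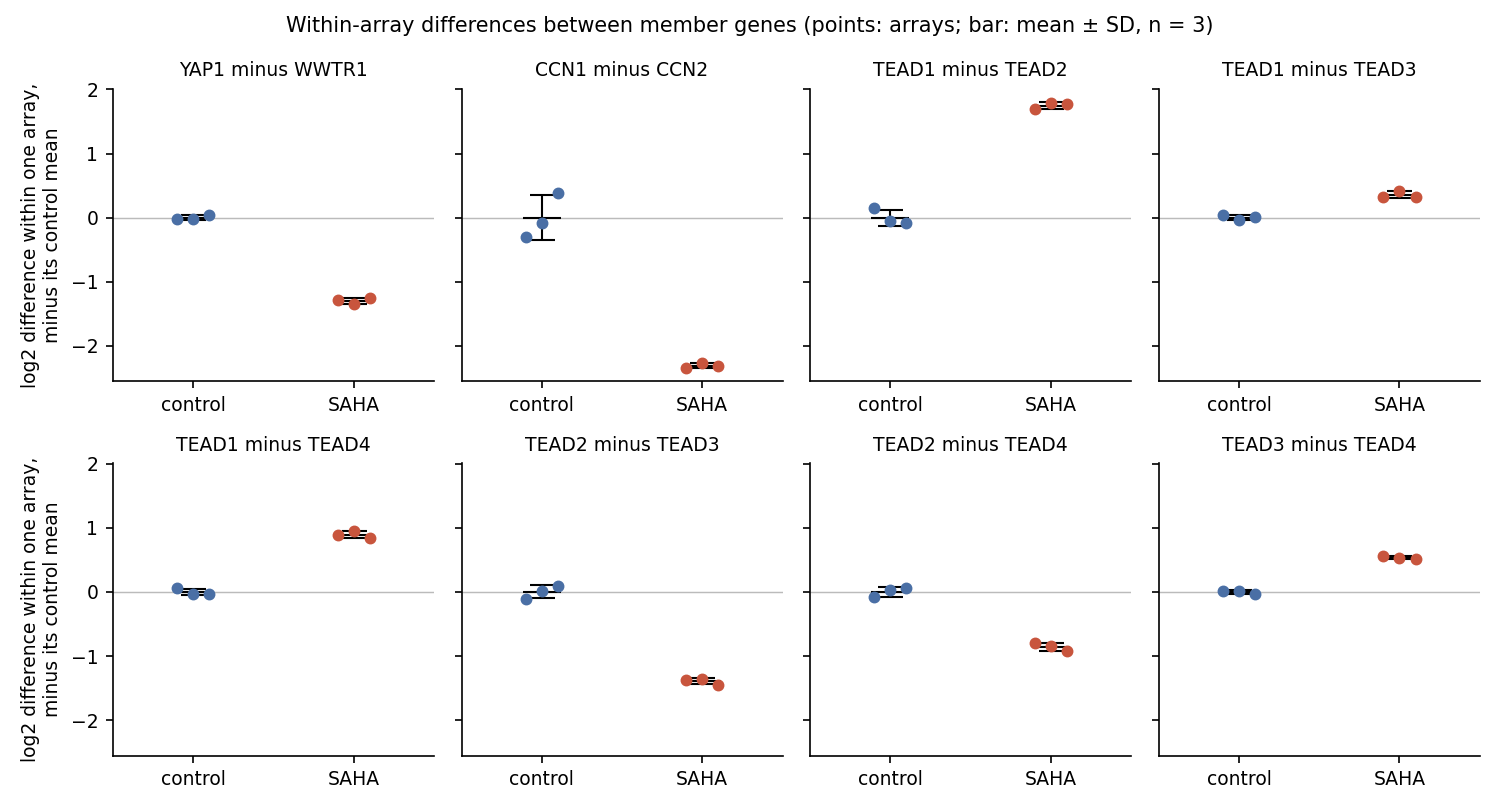
Log2 difference between paired genes within each array, after subtraction of the control mean of that difference; control arrays are blue, SAHA arrays red, and bars give mean and SD of 3 arrays. SAHA and control arrays lie apart in all 8 panels, with the largest shift in CCN1 minus CCN2 (-2.31) and the smallest in TEAD1 minus TEAD3 (0.36).

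The 4 target genes did not respond alike: ANKRD1 and CCN2 rose by more than 8-fold, CCN1 rose by less than 2-fold and AMOTL2 fell. Because ANKRD1 and CCN2 both rose by more than 8-fold, the DNA before their RefSeq start sites is shown with that of AMOTL2 and YAP1, which fell. Only windows with a match to the motif marked below are shown. Each sequence is the 250 bases before a start site (GRCh38.p14), read 5′ to 3′ on the strand of the gene, with capitals for GGAATG or its reverse complement CATTCC, the core of the element that TEAD proteins are known to bind. CCN2 lies on chromosome 6 (chr6:131951373-131951622, minus strand), ANKRD1 on chromosome 10 (chr10:90921088-90921337, minus strand), AMOTL2 on chromosome 3 (chr3:134374448-134374697, minus strand) and YAP1 on chromosome 11 (chr11:102110197-102110446, plus strand).
CCN2: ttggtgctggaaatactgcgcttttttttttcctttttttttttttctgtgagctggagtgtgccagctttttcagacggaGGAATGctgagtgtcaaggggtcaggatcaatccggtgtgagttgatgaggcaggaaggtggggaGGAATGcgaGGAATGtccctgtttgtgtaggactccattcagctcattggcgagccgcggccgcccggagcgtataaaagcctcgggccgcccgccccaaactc
ANKRD1: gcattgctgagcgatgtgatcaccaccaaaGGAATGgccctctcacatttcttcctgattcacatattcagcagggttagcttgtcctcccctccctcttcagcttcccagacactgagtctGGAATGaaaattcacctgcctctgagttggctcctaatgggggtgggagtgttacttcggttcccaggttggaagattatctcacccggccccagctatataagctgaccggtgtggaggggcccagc
AMOTL2: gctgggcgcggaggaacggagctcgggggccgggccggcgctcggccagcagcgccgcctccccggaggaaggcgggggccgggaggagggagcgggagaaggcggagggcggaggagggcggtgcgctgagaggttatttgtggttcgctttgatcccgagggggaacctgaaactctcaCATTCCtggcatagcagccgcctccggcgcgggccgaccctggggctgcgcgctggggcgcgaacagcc
YAP1: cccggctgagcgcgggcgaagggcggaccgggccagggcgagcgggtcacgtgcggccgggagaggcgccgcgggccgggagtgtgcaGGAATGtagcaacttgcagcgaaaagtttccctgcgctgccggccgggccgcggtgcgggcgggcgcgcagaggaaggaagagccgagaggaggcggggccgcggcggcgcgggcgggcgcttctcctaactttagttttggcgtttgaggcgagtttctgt

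The CCN2 window held 3 matches to GGAATG, beginning 169, 104 and 95 bases before the start. The ANKRD1 window held 2, beginning 220 and 128 bases before it, and the AMOTL2 and YAP1 windows 1 each. At least 1 match, on either strand, was present in 11.9% of all 35116 windows of this length, at least 2 in 0.94% and at least 3 in 0.0826%. The pattern TGANTCA, which allows any central base and so is looser than the usual AP-1 element, was found once among these windows. This match, tgattca in ANKRD1, did not overlap a GGAATG match, and the pattern was present in 6.57% of all windows. A stricter AP-1 pattern was not searched. The CArG box, the element of serum response factor, was found in none of them and in 1.16% of all windows. Windows were on hand for 7 of the 10 genes and not for CCN1, TEAD1 or TEAD4, where no element was searched. The windows of WWTR1, TEAD2 and TEAD3, like the other AMOTL2 window, had no GGAATG match and are not shown, although TEAD2 fell more than AMOTL2 and YAP1. A match is a stretch of letters, not evidence of binding. ANKRD1, CCN2 and AMOTL2 were in the group as well-known targets, so matches in their windows describe these genes and test nothing. Among 14239 measured genes with a window, 151 had at least 2 GGAATG matches. Of these 27.2% were higher and 30.5% lower in SAHA, beside 32% and 30.3% of all genes with a window. The 15 genes with at least 3 matches, CCN2 among them, counted 3 higher and 5 lower.

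ANKRD1 encodes an ankyrin repeat protein of the nucleus and the muscle sarcomere, and is a sensitive target of YAP in many cell lines. Its log2 signal was 8.94, 9.12 and 9.02 on the control arrays and 12.50, 12.49 and 12.57 on the SAHA arrays. The lowest SAHA array stood 3.37 above the highest control array. ANKRD1 rose by 3.49 ± 0.056 (SE; 95% interval 3.36 to 3.62, adjusted p = 5.52e-09), rank 23 among the rises of all genes. The genes with the most similar course over the 6 arrays, by Euclidean distance after each gene's control mean was subtracted, were GLRX (distance 0.20, change 3.44), DCLK1 (0.27, change 3.44) and SERPINI1 (0.34, change 3.33).

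CCN2 encodes connective tissue growth factor, a secreted matrix protein. On the control arrays its signal was 9.99, 9.87 and 9.34, and on the SAHA arrays 12.87, 12.81 and 12.85. The SAHA arrays agreed closely, while control array 3 lay 0.59 below the mean of the other control arrays. CCN2 rose by 3.11 ± 0.15 (95% interval 2.76 to 3.45, adjusted p = 6.45e-07). Without control array 3 the rise was 2.91, and over all arrays left out in turn it ran from 2.91 to 3.24. On the same control array the upstream regulator FRMD6 was 0.45 and the target CCDC80 0.48 below the mean of the other controls, whereas AMOT was 0.54 and F3 0.41 above it. These genes were picked out after their values were seen.

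CCN1 encodes the related secreted matrix protein CYR61. Its signal was 11.66, 11.75 and 11.69 in control and 12.49, 12.52 and 12.50 in SAHA. All SAHA arrays were higher by at least 0.74, and CCN1 rose 1.74-fold (change 0.80 ± 0.043, 95% interval 0.70 to 0.90, adjusted p = 1.25e-06). The log2 difference CCN1 minus CCN2 was 1.97 ± 0.35 on control arrays and -0.34 ± 0.040 on SAHA arrays (SD, n = 3), a shift of -2.31 between these sister genes. Without each array in turn that shift ran from -2.46 to -2.12.

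AMOTL2 encodes an angiomotin-like scaffold that binds YAP and promotes LATS activity, so that it is both a target and a restraint of the pathway. It was at 9.79, 9.92 and 9.95 in control and 9.56, 9.53 and 9.52 in SAHA. Every SAHA array was lower, by at least 0.23, and AMOTL2 changed by -0.35 ± 0.052 (95% interval -0.47 to -0.23, adjusted p = 0.000495). Its direction was thus opposite to that of the other targets. For TEAD2, the gene of the group that fell most, the most similar courses over the 6 arrays were those of EOGT (distance 0.099, change -1.18), ZBTB14 (0.10, change -1.25) and PER2 (0.11, change -1.18).

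**Figure D3:**
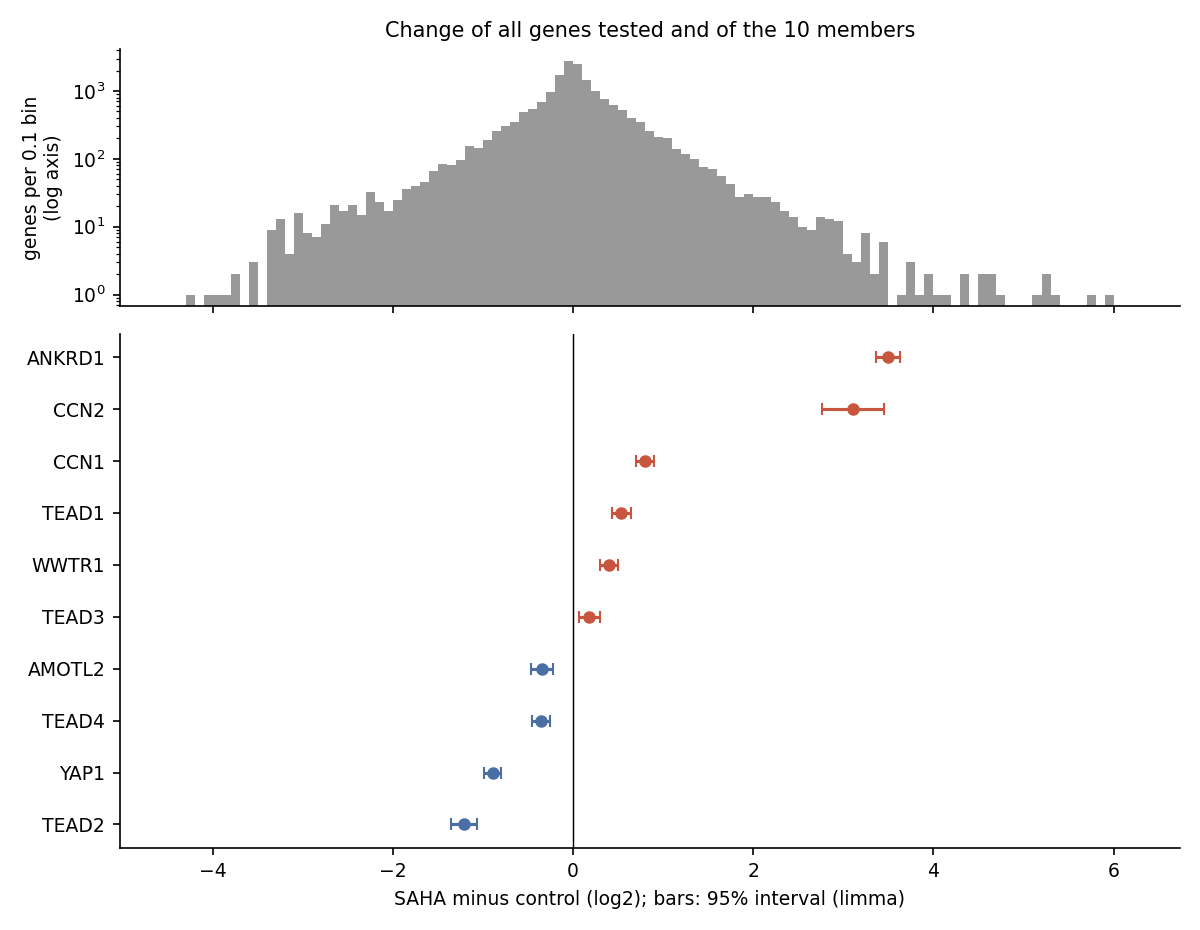
Upper panel: number of genes per 0.1 log2 bin of change, for all 18417 genes, on a log axis. Lower panel: change of each of the 10 genes (SAHA minus control, log2) with limma's 95% interval, from TEAD2 at -1.21 to ANKRD1 at 3.49; ANKRD1 and CCN2 lie in the sparse right tail, and the other 8 between -1.21 and 0.80.

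The Hippo kinase cascade that acts on YAP and TAZ also changed in both directions. All 11 genes of this list were called, 6 higher and 5 lower, beside 60% of all genes (31.1% higher and 28.9% lower). The median was 0.34 against -0.0027 over all genes, and none reached 2-fold. STK4, an MST kinase, rose by 0.91 (9.89 ± 0.054 to 10.80 ± 0.055, SD, n = 3), and the other MST gene, STK3, by 0.36. LATS2, a kinase that phosphorylates YAP and is itself a YAP target, rose from 9.44 ± 0.061 to 10.34 ± 0.021. Its paralog LATS1 went the other way, by -0.66 (10.20 ± 0.051 to 9.54 ± 0.063). MAP4K4, which acts on LATS in parallel with the MST kinases, changed by -0.88 and TAOK1, which activates MST kinases, by -0.42. TAOK2 rose by 0.60, and MOB1B, a LATS cofactor, rose by 0.50 while its paralog MOB1A changed by -0.22. SAV1, the scaffold of the MST kinases, rose by 0.34, and TAOK3 changed by -0.27.

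Of 14 upstream regulators 4 rose, 5 fell and 5 were not called (median -0.076), so that 9 of 14 were called, near the 60% of all genes. FAT4, a giant cadherin at the head of the pathway, rose by 0.96, from 8.41 ± 0.14 to 9.36 ± 0.020. FRMD6, a membrane scaffold, rose by 0.82 and WWC3, a KIBRA relative, by 0.60. WTIP, a LIM protein that restrains LATS, changed by -0.65, RASSF1 by -0.37 and AMOTL1, a relative of AMOTL2, by -0.30. NF2, the merlin tumour suppressor, gave 11.03 ± 0.065 without and 11.04 ± 0.038 with SAHA, and its difference of 0.0090 was not called (adjusted p = 0.894). The calls of WWC1 (0.18), WWC2 (-0.13) and PTPN14 (-0.15) ended under 6, 9 and 8 of 20 alternative settings, and the count of falls in the list ran from 3 to 8.

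Among the vestigial-like cofactors, which bind the TEAD proteins as YAP and TAZ do, 1 of 4 rose and 1 fell, beside 60% called over all genes. VGLL4, a repressor of TEAD activity, went from 9.31 ± 0.085 to 8.44 ± 0.053, a change of -0.87 (adjusted p = 3.54e-06). VGLL3 rose by 1.26, from 5.48 ± 0.24 to 6.74 ± 0.12 (adjusted p = 3.02e-05), from a control level under the lower quartile of all genes, 6.32. VGLL1 and VGLL2, also below that level, were at 0.013 and 0.0011 and were not called.

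Among 18 other genes widely used as YAP and TAZ targets, none changed as much as ANKRD1 or CCN2. Of these 8 rose, 6 fell and 4 were not called, beside 31.1% and 28.9% of all genes, with a median of 0.0086 and none changed 2-fold, so that their changes ran from -0.98 to 0.91. LATS2, also counted above, rose by 0.91, GADD45A, a stress gene, by 0.87 and CCDC80, a matrix protein gene, by 0.87. NT5E, the CD73 ectoenzyme, rose by 0.86, from a control level of 5.94, under the lower quartile of all genes, 6.32. IGFBP3, an IGF-binding protein, rose by 0.80. FJX1, a kinase-like regulator of FAT cadherins, went from 11.17 ± 0.030 to 10.19 ± 0.031, DOCK5 changed by -0.82, MYOF, myoferlin, by -0.72 and ARHGEF17 by -0.64. Smaller rises were those of NUAK2 (0.29), AXL (0.23) and TGFB2 (0.21), and smaller falls those of CRIM1 (-0.21) and PTPN14. The rises of AXL and TGFB2 were not called with arrays centred on the housekeeping level set by SDHA.

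Of 6 CCN and ANKRD family genes, relatives of the targets, 3 fell, 3 were not called and none was called higher (median -0.11). Over all genes 60% were called, 31.1% higher and 28.9% lower. Whether so short a list departs from these shares was not tested. CCN6 changed by -0.22, from a control level of 5.58, also under the lower quartile of all genes. ANKRD2, the muscle paralog of ANKRD1, changed by -0.49 and ANKRD23 by -0.21, although the call of ANKRD23 ended in 6 of 19 alternatives. CCN3 was at 0.16 and was called higher with the replicate block and without control array 3. CCN4 and CCN5 were at -0.0031 and -0.0057.

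CCN1, CCN2 and ANKRD1 are also known to respond to serum response factor (SRF) and its actin-regulated coactivators, the MRTF proteins. Of 7 measured genes of this list 1 rose, 5 fell and 1 was not called (median -0.33), beside 31.1% higher and 28.9% lower over all genes. TAGLN, transgelin, fell from 11.21 ± 0.071 to 9.77 ± 0.020, the smooth muscle actin gene ACTA2 changed by -0.38, MRTFB by -0.33, SRF by -0.33 and VCL, vinculin, by -0.16. CNN1, calponin, was the gene that rose, by 0.39.

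**Figure D4:**
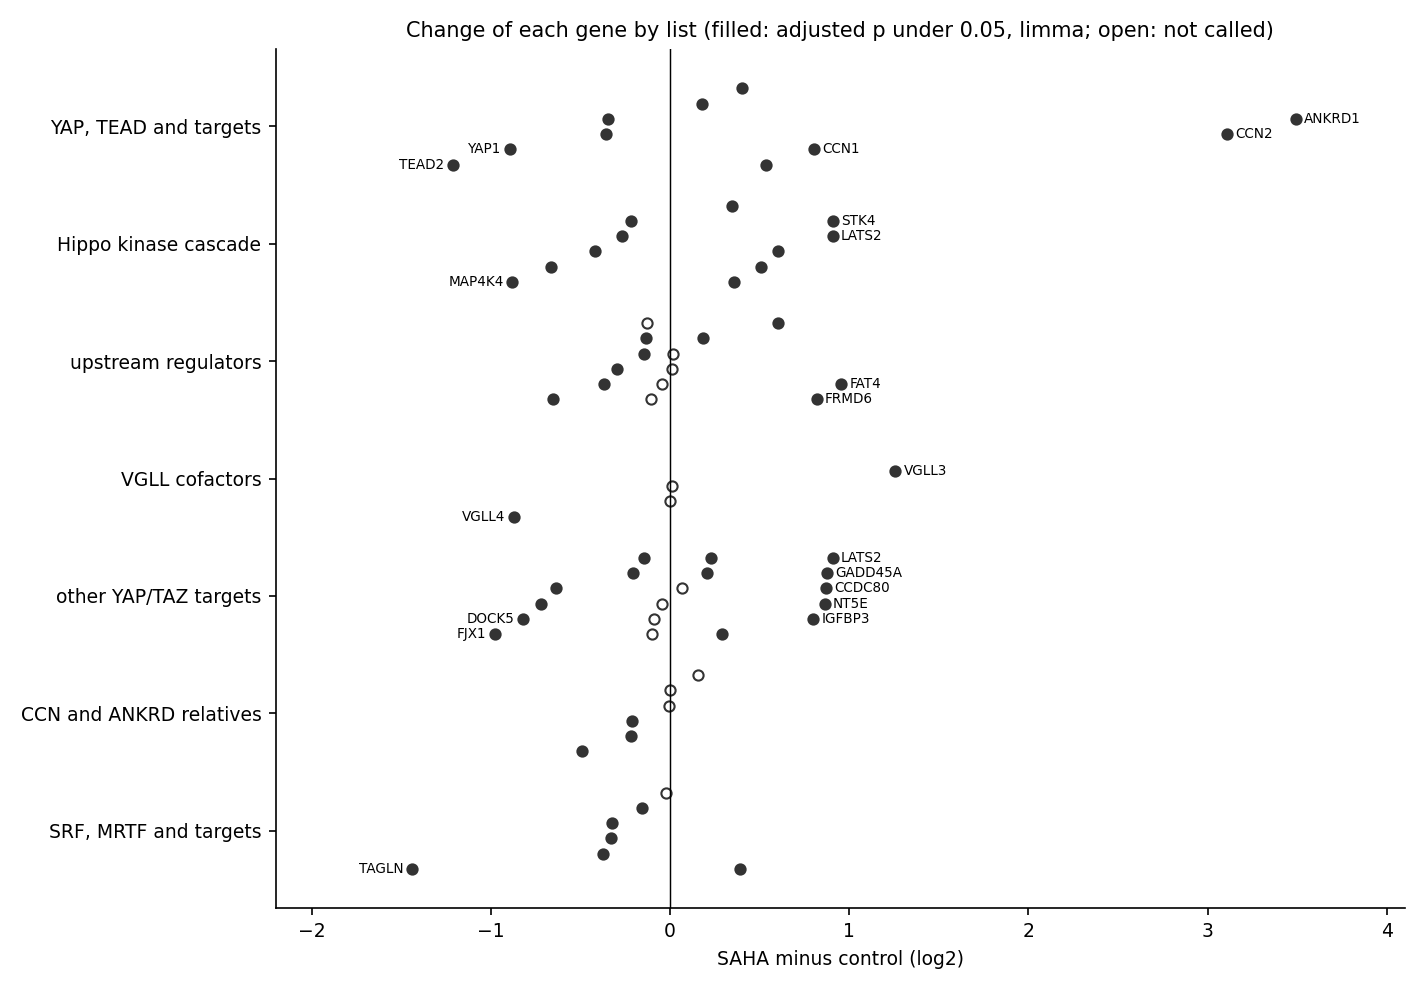
Change of each gene (SAHA minus control, log2) by list; filled points passed limma's test (adjusted p under 0.05), open points did not, and genes changed by at least 0.75 are named. Apart from ANKRD1 and CCN2, the named genes lie between -1.44 (TAGLN) and 1.26 (VGLL3), and each list but that of the CCN and ANKRD relatives holds filled points on both sides of 0.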

How the data were processed

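Trizol-extracted total RNA was labelled with Ambion and Affymetrix whole-transcript kits and measured on GeneChip arrays, per the labels' protocols. The deposited signal intensity of each probe set had been made with RMA, per the submitters' processing notes; RMA corrects background, quantile normalizes and summarises probes. The software behind it is not given in the sources used here. These values are on a linear scale, so log2 was taken. Of 33252 probe sets, 19460 named exactly 1 gene, 1754 several and 12038 none. Symbols were updated by Entrez identifier with a RefSeq table of GRCh38.p14 (19429 matched). For each of 18417 genes the probe set of highest mean signal over 6 arrays was kept, and dim genes stayed in. SAHA was compared with control by limma 3.58.1 (lmFit and eBayes, R 4.3.3), two-sided and without covariates. P-values were adjusted over all genes by Benjamini and Hochberg, and 0.05 was the threshold. Paired genes were compared by an exact permutation test. The fit and the permutation test were tested on simulated data. The number of arrays limits the precision. Promoter sequences are RefSeq's (GRCh38.p14).

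The genes, lists and tests were chosen with earlier results of these data known. Named genes are all 10 of the group, up to 6 called genes of each other list with the largest change, and genes that moved against most of their list. Others were named after their values were seen: the remaining genes of short lists, paralogs, and genes whose call depended on a setting. Similar genes were the 3 nearest to the most raised and the most lowered gene, without LOC, RNA, FAM, KIAA and open reading frame symbols. MRTFA was not analysed here. The alternatives were a further quantile normalization, cyclic loess, centring on all genes or on housekeeping genes in 2 ways (by level, and by deviation, added after seeing the data), floors at 5 or at the median of all genes, averaged probe sets, a fit of all probe sets, log2 of the value plus 16, other variance models, array weights, the replicate block, and each array left out in turn.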

Additional observations from a re-analysis of the deposited data

How the results depend on the processing

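Under 20 alternative fits none of the 10 genes reversed, 9 kept their call in each of them and 4 stayed called lower. The exception was TEAD3. It was not called with arrays centred on the median housekeeping level (0.037), which was SDHA's on every array, or without SAHA replicate 1. Over the arrays left out in turn its change ran from 0.14 to 0.20. Over all alternatives ANKRD1 ran from 3.35 to 3.54, CCN2 from 2.91 to 3.24 and YAP1 from -1.04 to -0.86. Over all genes, 5735 were higher and 5314 lower. This SDHA-set centring gave 8424 lower genes and a share of rises among calls of 32.8% against 51.9%. Centring on the median deviation of the 9 housekeeping genes, added after seeing the data, gave 5329 lower genes, a share of 51.1% and a called TEAD3 (0.17). Leaving out genes under the median gave 3660 higher genes, of fewer tested. Of 58 other pathway genes 43 were called, beside 60% of all genes. Of these 43, 37 kept their call in each setting that tested them, 6 lost it in some and none reversed. Among the pathway genes not called, 9 gained a call in some setting. The floor at the median left some dim genes untested. The replicate numbers did not pair the arrays (correlations of deviations -0.030, -0.17 and -0.0042, with no array closest to its own number). With the replicate block 5520 genes were higher and 5081 lower, and YAP1, TEAD3 and the other 8 genes kept their calls. No background call was available, so dim genes such as VGLL3, NT5E and CCN6 have uncertain folds.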
